A study of Chlamydomonas reinhardtii with 9 samples.

Results

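The 3 genes FEA2 (Cre12.g546600), FEA1 (Cre12.g546550) and TEF22 (Cre12.g546500) lie next to each other on chromosome 12 of Chlamydomonas reinhardtii. They were chosen by their locus IDs, 3 of the 17893 genes of each matrix, and all 3 passed the filter on low counts in every fit described here. In the v5.5 genome FEA2 spans positions 8666912 to 8670847, FEA1 spans 8671306 to 8675189 and TEF22 spans 8675408 to 8681279, as the RefSeq annotation of that assembly gives them. The intervals between the annotated genes are 458 bp (FEA2 to FEA1) and 218 bp (FEA1 to TEF22), and all 3 are annotated as protein-coding.

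FEA1 and FEA2 are related proteins that Chlamydomonas secretes to its periplasm when iron is scarce, and FEA1 is among the most abundant proteins that iron-starved cells release. TEF22 is a much less studied protein, whose gene shares promoter sequence with FEA1. The remaining high-affinity iron uptake machinery sits at the plasma membrane, where the reductase FRE1 reduces ferric iron and the multicopper oxidase FOX1 passes it, reoxidized, to the permease FTR1. IRT1 and IRT2 are ZIP-family metal transporters, and CTP1 is a copper-transporting ATPase.

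The data were 9 single-cell 3′ libraries of batch cultures, and each library was 1 culture or a mixture of 2. Strain CC-5390 (cw15 arg7-8::ARG7, MT+) lacks a cell wall, and CC-4532 (CW, MT-) has one, so strain, wall and mating type cannot be told apart. All cultures were pre-grown at 24 °C in constant light in acetate medium (TAP) with 20 µM FeEDTA and then spent 23 h in a test medium, which was TAP with 20 µM FeEDTA (Fe+), TAP without FeEDTA (Fe-), or TAP without nitrogen (N-), which kept its iron. Experiment 1 held Fe+, Fe- and an equal mixture of both cultures (Mix), all of CC-5390, and experiment 2 held Fe+, Fe- and N- of CC-5390 and Fe+ and Fe- of CC-4532. N- gave the libraries R1 and R2, which the study calls technical duplicates and which count as 1 sample here. The methods name more CC-5390 flasks than media in experiment 2, so that R1 and R2 came from 1 culture is not certain.

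Libraries held 2064 to 11798 cells and 7576775 to 52436795 unique molecular identifiers (UMIs, each 1 captured transcript), with medians of 1388 to 5843 UMIs per cell. No 2 libraries shared more than 40 cell barcodes, at most 0.436% of the smaller one. The libraries of the 2 experiments and strains differed in composition beyond iron. With each level taken as CPM (UMIs of a gene relative to all UMIs of its library, scaled to a common total), the median gene was 0.66 (Fe+) and 0.91 (Fe-) higher on the log2 scale in experiment 1 than in experiment 2 of CC-5390. The median gene was 0.87 (Fe+) and 0.57 (Fe-) lower on the log2 scale in CC-4532 than in CC-5390, since a larger part of those UMIs fell on few genes. Iron contrasts within an experiment and strain had median shifts of 0.18, 0.02 and 0.40, and ratios across strains or experiments are therefore read against these medians.

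All 3 genes were higher in Fe- than in Fe+ in each of the 3 pairs of cultures, and FEA2 had the largest ratio of the 3 in every pair. FEA1 had 2202 CPM in Fe- and 339.9 in Fe+ in experiment 1, and 618 and 132 CPM in experiment 2. In CC-4532 it had 582 CPM in Fe- and 16.6 in Fe+ (95% Poisson interval 14.8 to 18.6). The Fe- libraries thus lay above every Fe+ library for FEA1, while its Fe+ levels spread over a wide range, highest in experiment 1 and lowest in the walled strain.

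FEA2 had 490.4, 340.3 and 685 CPM in the Fe- libraries of experiment 1, experiment 2 and CC-4532. It had 10.4 (9.30 to 11.6), 6.19 (5.42 to 7.04) and 16.4 (14.6 to 18.3) CPM in the matching Fe+ libraries. Both the Fe- and the Fe+ levels of FEA2 were highest in CC-4532, where FEA1 had its lowest Fe+ level.

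TEF22 had 113, 72.4 and 77.3 CPM in the Fe- libraries in the same order. It had 11.9 (10.7 to 13.2), 17.5 (16.2 to 18.9) and 5.37 (4.36 to 6.54) CPM in the Fe+ libraries. As for the other members, no Fe+ library reached the lowest Fe- library.

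**Figure D1:**
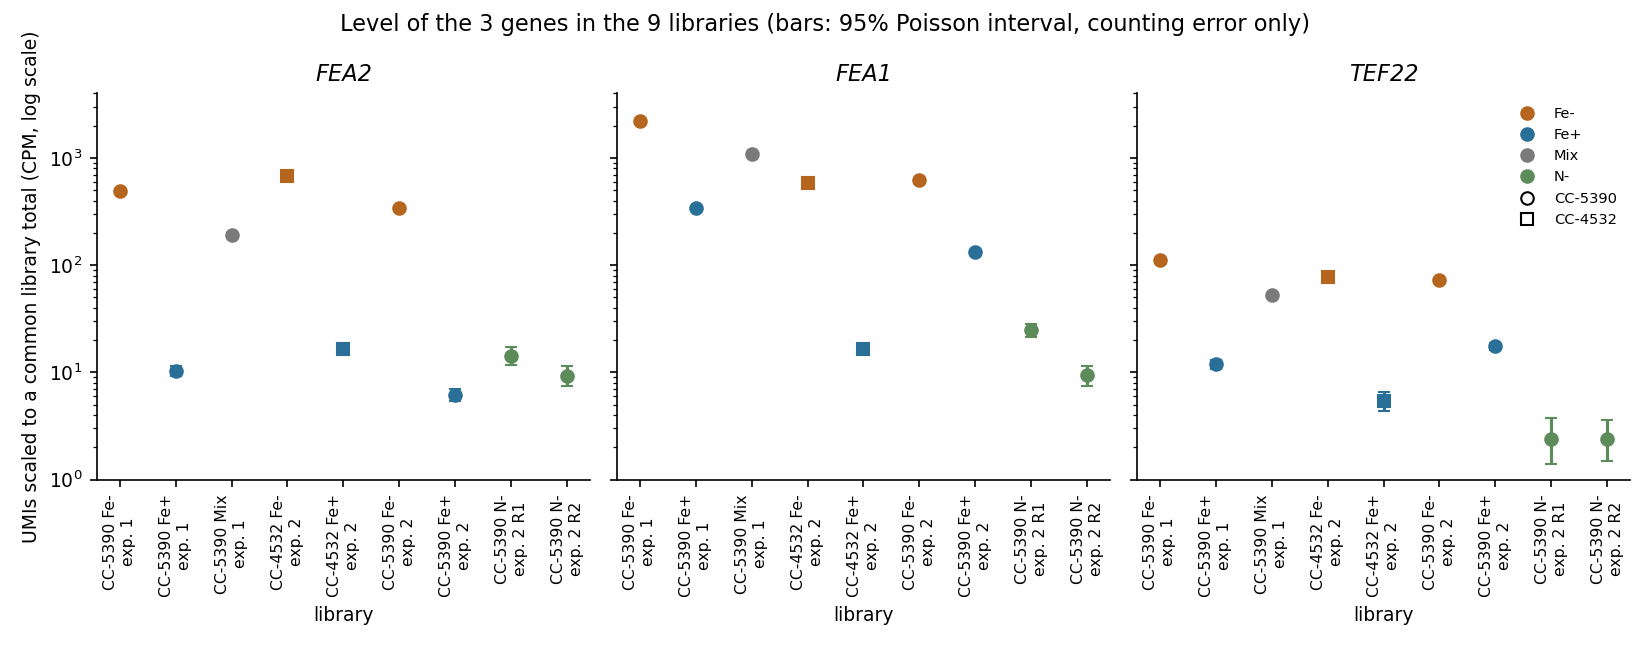
UMIs scaled to a common library total (CPM, log axis) of FEA2, FEA1 and TEF22 in each of the 9 libraries, colored by condition, with circles for CC-5390 and squares for CC-4532 and bars for 95% Poisson intervals of counting error. The Fe- points lie above all Fe+ points for each gene, and FEA1 in Fe+ falls from 339.9 CPM in experiment 1 to 16.6 in CC-4532.

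The Fe- over Fe+ ratio of CPM was 6.48 (95% interval 6.35 to 6.61) for FEA1 in experiment 1, 4.68 (4.54 to 4.82) in experiment 2 and 35.1 (31.3 to 39.5) in CC-4532. For FEA2 the ratios were 47.2 (42.4 to 52.8), 54.9 (48.3 to 62.8) and 41.9 (37.3 to 47.1). For TEF22 they were 9.46 (8.52 to 10.5), 4.13 (3.81 to 4.50) and 14.4 (11.8 to 17.8). These intervals cover counting error only and not the spread between cultures. Scaled by TMM factors over all 9 libraries, which set the median gene near 0 on the log2 scale, the ratios of FEA2 were 41.6 (37.3 to 46.5), 52.5 (46.1 to 60.0) and 30.8 (27.5 to 34.6), so its ratio was lowest in CC-4532. TMM left FEA1 at 5.71, 4.47 and 25.8. Under both scalings the ratio of FEA1 was several times larger in the walled strain, whose single pair allows no test of that difference.

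edgeR's quasi-likelihood test compared the summed UMIs of the libraries. With the 2 pairs of CC-5390 alone it called 0 of 14588 genes at an adjusted p under 0.05 (0% of genes), although 1777 had an unadjusted p under 0.05 and DESeq2 called 548 of 13554. None of the 3 genes passed it. The log2 fold changes were 2.36 for FEA1 (standard error 0.77, adjusted p = 0.296), 5.54 for FEA2 (0.80, adjusted p = 0.0988) and 2.39 for TEF22 (0.72, adjusted p = 0.288). FEA2 ranked 12th of the 14588 genes by fold change, TEF22 368th and FEA1 381st.

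Fe- and Fe+ of 1 experiment descended from a common pre-culture, and once experiment entered the model as a blocking factor 4.32% of genes were called higher in Fe-, all 3 members with them. The blocked log2 fold changes were 2.32 for FEA1 (standard error 0.36, adjusted p = 0.000366), 5.53 for FEA2 (0.51, adjusted p = 2.12e-06) and 2.51 for TEF22 (0.54, adjusted p = 0.00541). Without a block, DESeq2 also called the 3 genes, with adjusted p of 0.0103, 4.86e-18 and 0.00757, among 2.16% of genes it called higher. Adjusted p over all alternatives ranged from 0.000366 to 0.922 for FEA1, from 4.86e-18 to 0.152 for FEA2 and from 0.00541 to 0.912 for TEF22. Leaving out the Fe- library of experiment 1 or the Fe+ library of experiment 2 gave FEA2 an adjusted p of 0.0193 or 0.0136, in fits that called 1.2% and 1.98% of genes higher. Without a filter on low counts its adjusted p was 0.0129, with 0.209% of genes called higher.

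With the pair of CC-4532 added (3 libraries against 3, strain in the model), edgeR called all 3 members. In that fit 1.66% of 14250 genes were called higher in Fe-. Log2 fold changes were 3.11 for FEA1 (standard error 0.71, adjusted p = 0.0419), 5.36 for FEA2 (0.61, adjusted p = 0.00712) and 2.74 for TEF22 (0.57, adjusted p = 0.0372). With the culture pair as a block, 8.86% of genes were called higher, and the adjusted p of the 3 members were 0.00109, 7.92e-06 and 0.00113. The calls without a block were lost when either library of the walled strain was left out. With strain in the model, its remaining library then adds nothing to the iron contrast. Both fits therefore repeat the comparison within CC-5390, in which edgeR called none of the members. Their log2 fold changes were 2.36, 5.54 and 2.38 without its Fe- library and 2.35, 5.54 and 2.38 without its Fe+ library. Leaving out Fe+ of experiment 1 gave FEA1 an adjusted p of 0.0796 and TEF22 one of 0.104, and leaving out Fe+ of CC-5390 in experiment 2 gave FEA1 0.0804, so these calls were lost too.

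Some of the iron genes outside the cluster also passed the test. In the fit of both strains without a block, where 1.66% of all genes were called higher in Fe-, 6 of 6 uptake genes were. Their median log2 fold change was 3.36 against -0.03 over all genes tested. IRT1 rose by 6.65 (standard error 0.61, adjusted p = 0.00312), FRE1 by 5.12 (0.98, adjusted p = 0.0321) and FOX1 by 2.55 (0.55, adjusted p = 0.0388). IRT1 had only 1, 3 and 1 UMIs in the Fe+ libraries of experiment 1, experiment 2 and CC-4532, so the size of its rise is uncertain. Of 5 other iron-responsive genes, 2 were called higher: MSD3, a manganese superoxide dismutase, with 7.55 (0.86, adjusted p = 0.00712) and CDJ3, a chloroplast DnaJ-type chaperone, with 2.19 (0.53, adjusted p = 0.0483). CGLD27, the metal transporter MTP1 and ACA4 had adjusted p of 0.104, 0.0846 and 0.161, and log2 fold changes between 1.28 and 2.46. The study's iron deficiency list, which was compiled from earlier bulk data, holds 97 genes besides the 3 members, the 11 above among them. Of these, 95 were tested, 27 were called higher and 0 lower (median log2 fold change 1.53, edgeR without a block), beside 1.66% of all genes called higher. With the culture pair as a block 55 were called higher and 0 lower, beside 8.86% of all genes called higher.

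The median neighbor did not rise with the cluster. Of the 20 neighbors, 10 annotated genes on either side of the cluster, 15 had enough counts to be tested, and their median log2 fold change in the fit of both strains was -0.09. Without a block 0 were called higher and 1 lower, where 3.49% of all genes were called in either direction. By CPM the directly adjacent Cre12.g546650 was higher in Fe- in all 3 pairs, at 56.7 against 50.4, 28.6 against 22.0 and, in CC-4532, 55.3 against 17.1. The median gene also rose in these pairs, by 0.18, 0.02 and 0.40 on the log2 scale, so experiment 1 gives this gene no clear direction. The other adjacent gene, Cre12.g546450, was higher in Fe- in CC-5390 and lower in CC-4532, there with only 7 UMIs in Fe- and 11 in Fe+. With the culture pair as a block their log2 fold changes were 0.52 (standard error 0.44, adjusted p = 0.434) and -0.01 (0.45, adjusted p = 0.995). In that fit, which called 17.5% of all genes in either direction, 3 neighbors were called. Cre12.g546150, which encodes the PETM subunit of the cytochrome b6f complex, fell by 2.30 (0.38, adjusted p = 0.000982), Cre12.g546050 fell by 1.65 (0.43, adjusted p = 0.0146), and Cre12.g546850 was higher by 1.47 (0.48, adjusted p = 0.0446) at no more than 2.21 CPM in any of the Fe- libraries. TEF22 ends a few bases before Cre12.g546450 begins.

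**Figure D2:**
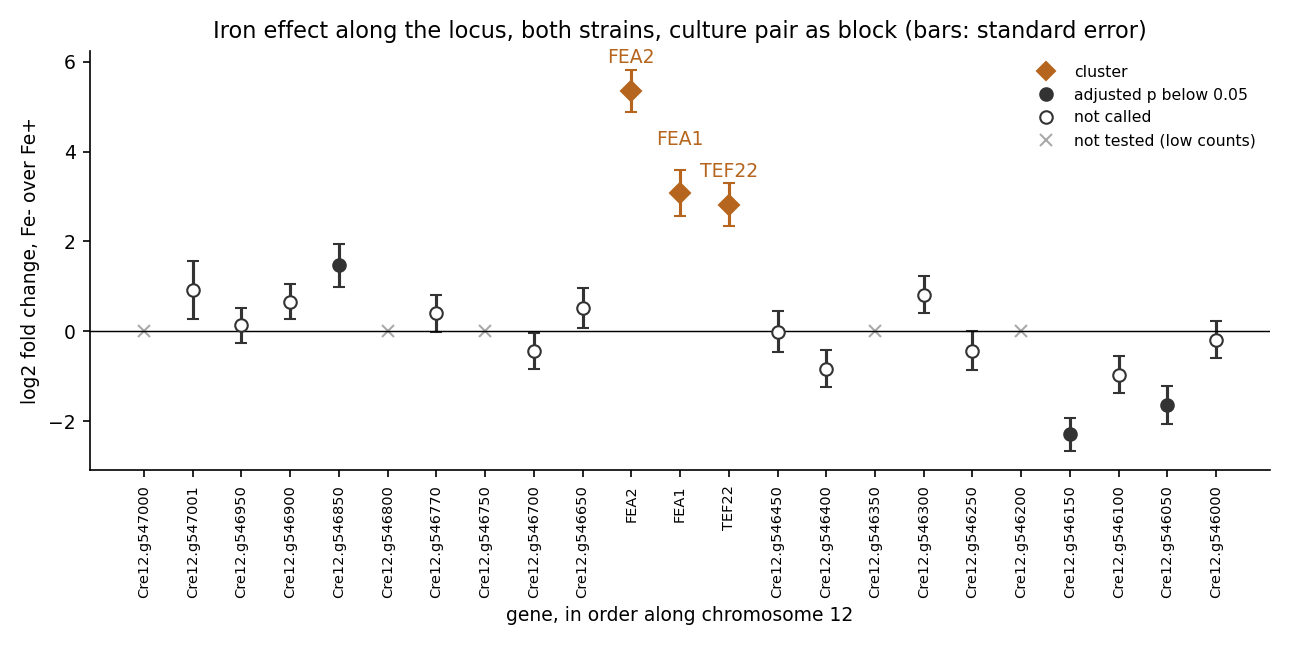
Log2 fold change of Fe- over Fe+ (edgeR, both strains, culture pair as a block, bars for standard errors) for the cluster and the 10 annotated genes on either side, in their order on chromosome 12, with crosses for genes with too few counts to be tested. The 3 members stand at 5.35, 3.09 and 2.82, while the genes next to them lie at 0.52 and -0.01.

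Within a library, the number of FEA1 UMIs for each FEA2 UMI needs no scaling between libraries. It differed between the strains and, in CC-5390, by iron and between the experiments. In CC-5390 it was 32.7 (95% interval 29.4 to 36.6) in Fe+ and 4.49 (4.42 to 4.56) in Fe- of experiment 1. In experiment 2 it was 21.3 (18.7 to 24.4) in Fe+ and 1.82 (1.78 to 1.85) in Fe-. In CC-4532 the ratio was 1.01 (0.861 to 1.19) in Fe+ and 0.850 (0.834 to 0.866) in Fe-, with overlapping intervals. The intervals of the walled strain's libraries thus lay below those of every Fe library of CC-5390, and in CC-5390 iron lack moved the transcript pool from mostly FEA1 toward a larger part of FEA2.

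The log2 Fe- over Fe+ ratio of FEA1 was smaller than that of FEA2 by 2.87 in experiment 1, by 3.55 in experiment 2 and by 0.25 in CC-4532. All 3 pairs had this sign, but an exact sign test over 3 pairs cannot give a two-sided p below 0.25. FEA2 also stood above TEF22 in all 3 pairs, with differences of 2.32, 3.73 and 1.54, whereas FEA1 and TEF22 had no constant order (-0.55, 0.18 and 1.28). FEA1 and FEA2 are paralogs, and whether reads that match both genes were lost differently from each was not tested.

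**Figure D3:**
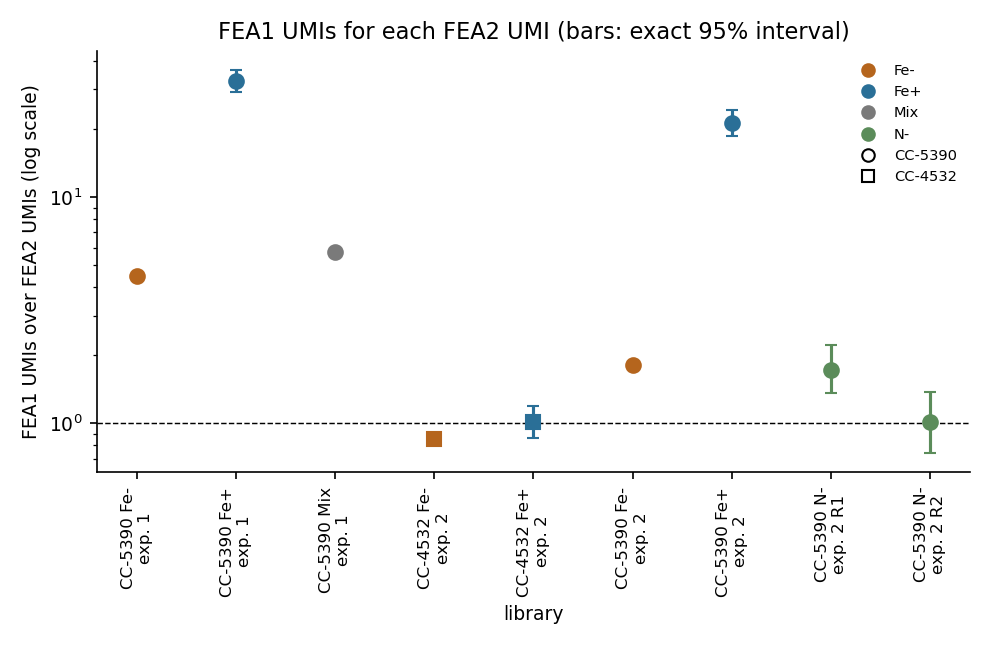
FEA1 UMIs divided by FEA2 UMIs (log axis) in each library, with bars for exact 95% intervals of counting error and a dashed line at equal numbers. The ratio is 32.7 and 21.3 in the Fe+ libraries of CC-5390, 4.49 and 1.82 in its Fe- libraries, and close to 1 in both libraries of CC-4532.

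Between the strains in experiment 2, the members moved in opposite directions under iron-replete conditions. In Fe+ the CPM of CC-4532 over that of CC-5390 was 0.125 for FEA1 (95% interval 0.111 to 0.141) and 0.306 for TEF22 (0.245 to 0.379), but 2.64 for FEA2 (2.22 to 3.15). Scaled by the TMM factors the ratios were 0.227, 0.554 and 4.78, and RLE factors gave 0.235, 0.573 and 4.95, so the 3 directions held under each scaling. With 1 library per strain there is no test. None of the 6 uptake genes was higher in CC-4532 by CPM, and for 5 of the 6 the interval lay below 1, where 16.3% of all 13586 genes were higher. FRE1 was lowest, with 4 UMIs against 927 (ratio 0.00889, 0.00242 to 0.0228). By TMM 2 of the 6 (IRT1 and CTP1) were higher, where 49.1% of all genes were. No interval lay above 1 and those of 3 lay below it, and IRT1 had 1 UMI in CC-4532 against 3 in CC-5390.

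In Fe- FEA2 was again higher in CC-4532, with a ratio of 2.01 (1.97 to 2.05) by CPM, 2.81 by TMM and 3.02 by RLE. FEA1 had a ratio of 0.942 (0.925 to 0.959) by CPM, which turned to 1.31 and 1.41 by TMM and RLE, and TEF22 had 1.07, 1.49 and 1.60. No direction is therefore given for FEA1 between the strains in Fe-.

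Without nitrogen all 3 genes were low. FEA1 had 24.7 CPM in R1 and 9.37 in R2, FEA2 had 14.3 and 9.26, and TEF22 had 2.38 and 2.40. The duplicates thus differed by a factor of 2.63 for FEA1 (2.02 to 3.44), and by 1.54 for FEA2 (1.15 to 2.07), both beyond counting error, and agreed for TEF22 within it. Summed, N- held 0.0264 times the FEA1 CPM of the Fe- library of experiment 2, 0.0338 times that of FEA2 and 0.0330 times that of TEF22. Against the Fe+ library of CC-5390 the ratio was 0.123 (0.109 to 0.139) for FEA1 and 0.136 (0.0965 to 0.188) for TEF22, and TMM and RLE lowered both to between 0.0571 and 0.0699. FEA2 had a ratio of 1.86 (1.53 to 2.26) by CPM, but the median gene rose by 0.95 on the log2 scale in the same comparison, and TMM and RLE gave 0.862 (0.709 to 1.05) and 0.954 (0.784 to 1.16). FEA1 and TEF22 were thus lower in N- than in Fe+ under each scaling, and no direction is given for FEA2. FEA1 and FEA2 stood at 1.41 (1.17 to 1.71) FEA1 UMIs for each FEA2 UMI in N-, far from the 21.3 of the Fe+ library of the same strain and experiment.

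Levels in the Fe- and Fe+ libraries of CC-5390 also differed between experiments. The experiments had different pre-culture schedules, sequencers and read depths, so these cannot be told apart. FEA1 had a CPM ratio of experiment 1 over experiment 2 of 3.56 in Fe- and 2.57 in Fe+, and TMM scaling left 2.08 and 1.63. FEA2 had 1.44 and 1.68 by CPM, which TMM turned to 0.840 and 1.06. TEF22 had 1.56 in Fe- and 0.680 in Fe+, and TMM gave 0.907 and 0.430. The higher FEA1 level of experiment 1 held under CPM, TMM and RLE in both conditions.

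Shares of cells were compared after each cell was thinned to 1000 randomly drawn UMIs, which left out 59 to 1505 shallower cells per library. In CC-5390 at least 1 FEA1 UMI was found in 85.1% of Fe- cells and 19.1% of Fe+ cells of experiment 1 (94.3% and 33.4% without thinning, medians of 2960 and 2332 UMIs per cell among the cells kept). In experiment 2 the shares were 44.1% and 10.7% (82.2% and 23.8% unthinned, kept medians of 6509 and 2252). In CC-4532 they were 37.5% and 1.86% (66.2% and 5.92% unthinned, kept medians of 2976 and 5521). FEA1 was therefore found in most cells of only 2 libraries, Fe- and Mix of experiment 1, at this depth.

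FEA2 had thinned shares of 36.3%, 27.9% and 44.2% in the Fe- libraries and 1.00%, 0.580% and 1.33% in the Fe+ libraries of experiment 1, experiment 2 and CC-4532. TEF22 had 11.99%, 7.64% and 6.72% in Fe- and 1.11%, 1.93% and 0.862% in Fe+. In N- the shares of the 3 genes ran from 0.275% to 1.97%. No cell type that lacks these transcripts exists in a culture of 1 strain, so the part of free RNA in the low shares was not tested. Thinned shares followed the order of the CPM for FEA1, FEA2 and TEF22 within each Fe- and Fe+ pair.

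At 1000 UMIs, 9.41% of Fe- cells of experiment 1 had no UMI of any of the 3 genes, 52.1% had 1 of the genes, 34.2% had 2 and 4.29% (408 of 9511 cells) had all 3. In the Fe- cells of experiment 2 and CC-4532, 1.10% and 1.65% had all 3. In each Fe+ library of CC-5390 a single cell had all 3, and in the Fe+ library of CC-4532 and in N- none did.

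Co-detection was measured as the number of cells with a UMI of both genes, divided by the number that the product of the 2 single shares gives. In the Fe- libraries of CC-5390 this ratio was near 1 for all 3 gene pairs. FEA1 and FEA2 were found together in 3016 cells where the product gave 2936 in experiment 1 (ratio 1.03, 95% Poisson interval 0.991 to 1.06), and in 1080 where it gave 996 in experiment 2 (1.08, 1.02 to 1.15). FEA1 and TEF22 had ratios of 1.04 and 1.06, and FEA2 and TEF22 of 1.10 and 1.10. Expressed per cell, FEA2 was found in 37.3% of Fe- cells with FEA1 and 30.6% of those without it in experiment 1, and in 30.2% and 26.0% in experiment 2. The neighbors were thus found together in single iron-starved cells only slightly more often than their separate shares give, and in a library where most cells have FEA1 the ratio has little room above 1.

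In CC-4532 the Fe- ratios were somewhat higher, at 1.14 (1.09 to 1.19) for FEA1 and FEA2, 1.25 (1.12 to 1.40) for FEA1 and TEF22 and 1.13 (1.01 to 1.26) for FEA2 and TEF22. When at least 2 UMIs of each gene were required, the ratio of FEA1 and FEA2 was 1.09 (1.01 to 1.17), 1.56 (1.29 to 1.86) and 1.60 (1.43 to 1.80) in the Fe- libraries of experiment 1, experiment 2 and CC-4532. Cells with at least 2 UMIs of one FEA gene were thus somewhat more often those with at least 2 of the other. For FEA2 and TEF22 the product gave at least 10 cells with 2 or more UMIs of each only in Fe- of experiment 1, where 31 cells were found against 12.4 (ratio 2.51, 1.71 to 3.56). Thinned Fe- cells of experiment 1 had a median of 306 detected genes where no FEA1 UMI was found and 422 where 5 or more were, so FEA1 moved with the number of genes per cell. Its part in the co-detection was not tested.

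In Fe+, where the genes were rare, the product gave at least 10 cells only for pairs with FEA1 in CC-5390. FEA1 and TEF22 were found together in 46 cells of experiment 1 where the product gave 24.7 (ratio 1.86, 1.36 to 2.49), and in 32 cells of experiment 2 where it gave 23.2 (1.38, 0.945 to 1.95). TEF22 was found in 2.06% of the Fe+ cells with FEA1 and 0.879% of those without it in experiment 1. FEA1 and FEA2 were found together in 28 cells where the product gave 22.4 (1.25, 0.831 to 1.81). In Fe+ of CC-4532, where only 56 of 3016 cells had FEA1, 8 cells had both FEA1 and FEA2 where the product gave 0.743, and FEA2 was found in 14.3% of cells with FEA1 and 1.08% of those without it.

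Mix, which holds cells of both cultures of experiment 1, served as a reference for 2 unlike populations. Its ratios were 1.42 (1.34 to 1.504) for FEA1 and FEA2, 1.40 (1.27 to 1.54) for FEA1 and TEF22 and 1.70 (1.43 to 2.01) for FEA2 and TEF22. All 3 lay above those of the Fe- library of the same experiment, whose intervals did not overlap them. For the pairs with FEA1 this comparison shows little. FEA1 was found in 85.1% of those Fe- cells against 53.6% of Mix cells, and so high a share caps the Fe- ratio below the Mix intervals. FEA2 was found in 21.9% of Mix cells with FEA1 and 7.88% of those without it. The CPM of Mix stood at 40.6%, 37.6% and 40.2% of the way from Fe+ to Fe- for FEA1, FEA2 and TEF22 (1095, 191 and 52.4 CPM). By the share of cells at 1000 UMIs the positions were 52.2%, 40.7% and 37.8%, so the 3 genes placed the mixture at nearly the same point by CPM but not by shares.

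**Figure D4:**
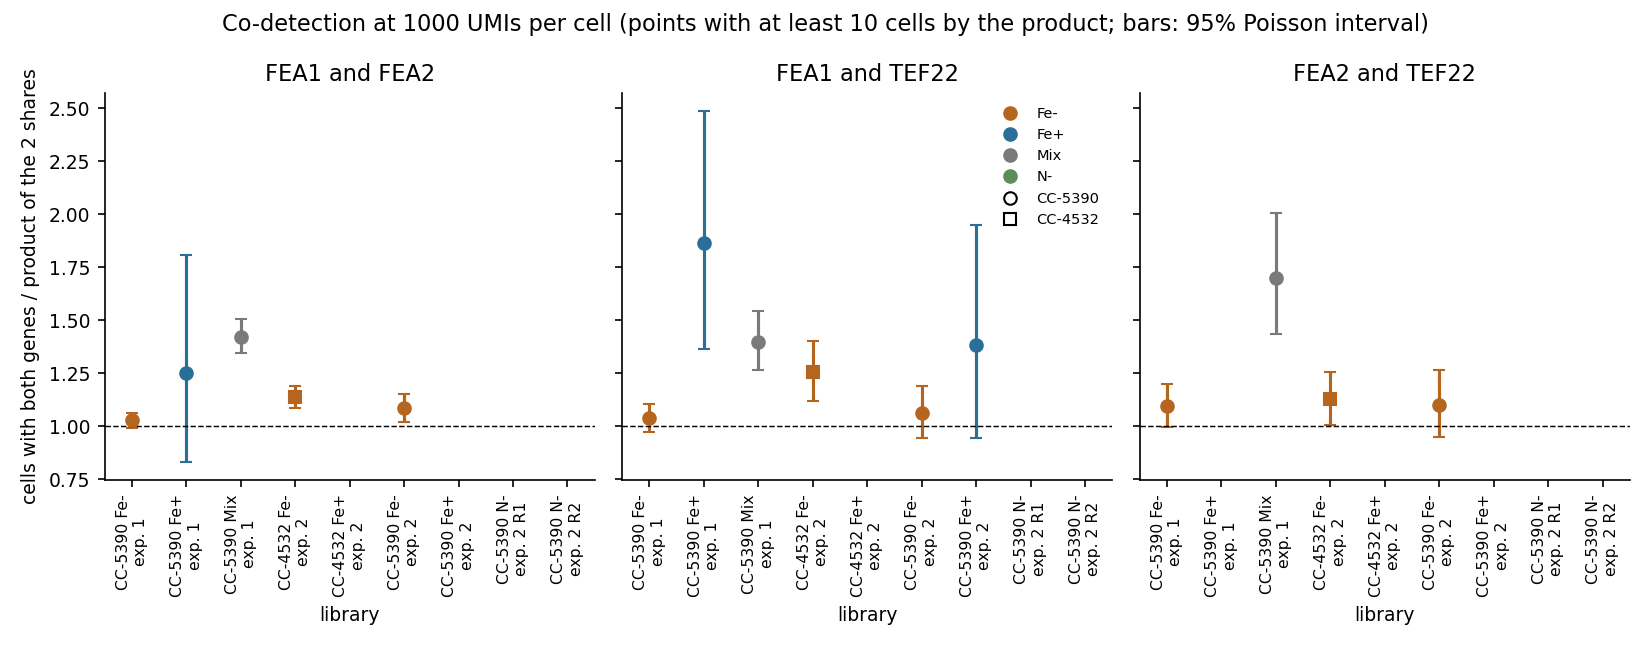
Cells with UMIs of both genes divided by the number that the product of the 2 single shares gives, at 1000 UMIs per cell, for the 3 gene pairs and each library in which the product gave at least 10 cells, with 95% Poisson intervals. Fe- libraries of CC-5390 lie between 1.03 and 1.10, and Mix lies between 1.40 and 1.70.

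The spread of FEA1 over cells was wider than counting alone would give. Its variance over mean per thinned cell was 1.86 in Fe- and 2.06 in Fe+ of experiment 1, 1.43 and 1.17 in experiment 2, and 1.44 and 1.53 in CC-4532, where random draws from identical cells would give about 1. In Fe+ of experiment 1 the top 10% of cells held 69.4% of all FEA1 UMIs, and 1 cell had 13 of them. TEF22 had values of 1.03 to 1.17 in the 6 Fe libraries, at means of 0.00928 to 0.133 UMIs per cell. Variance over mean nears 1 at such low means, so it does not show that TEF22 was more evenly spread than FEA1. FEA2 had 1.86 in Fe- of experiment 1, 1.17 in experiment 2 and 1.43 in CC-4532, and in experiment 1 its highest cell held 21 UMIs of 1000 at a mean of 0.536.

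Some other iron genes, though not all, were higher in these rare FEA2-rich cells. In Fe- of experiment 1, 42 of 9511 cells (0.442%) had 5 or more FEA2 UMIs per 1000, a limit chosen after the values were seen, so what follows is a description without a test. IRT1 was found in 13 of the 42 cells (31.0%, Clopper-Pearson interval 17.6 to 47.1), and in 0.813% of the other 9469 cells (0.642 to 1.02). The 42 cells held 27.7% of all IRT1 UMIs of the thinned library. The IRT1 share was 0.561%, 0.958%, 1.48% and 3.40% in cells with 0, 1, 2 and 3 or 4 FEA2 UMIs. Cells grouped by FEA1 instead had an IRT1 share from 0.705% of cells without FEA1 to 1.26% of those with 5 or more. With 5 or more FEA1 UMIs there were 15.1% of cells, against 0.442% for FEA2. The same limit thus takes unlike parts of the library, and the groupings cannot be compared by it.

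The other members and the uptake genes were not all higher in the FEA2-rich cells. FEA1 averaged 5.21 UMIs per 1000 against 2.49 in the other cells, TEF22 0.643 against 0.131, FTR1 0.833 against 0.168 and FOX1 1.57 against 0.637. FRE1 averaged 0.738 against 0.771, IRT2 0.0238 against 0.0281 and MSD3 0.0714 against 0.179. Their depth was not high, with a median of 2492 UMIs per cell before thinning against 2966, and their median number of genes per 1000 UMIs was 420 against 376.

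In Mix, 12 of 10411 cells passed the same limit. IRT1 was found in 4 of them (33.3%, 9.92 to 65.1) and in 0.308% of the others, and FEA1 averaged 6.50 UMIs against 1.15 and TEF22 0.583 against 0.0556. In CC-4532 Fe- 78 cells passed it, with IRT1 in 3.85% (0.800 to 10.8) against 0.719%, and their median number of genes per 1000 UMIs was 294.5 against 203. In Fe- of CC-5390 in experiment 2 there were 3 such cells, 0 with IRT1 (which allows up to 70.8%), and no cell of an Fe+ library passed the limit. FEA2-rich cells thus had an IRT1 UMI far more often than other cells in the 2 libraries that hold Fe- cells of experiment 1, which share a culture. Most FEA2-rich cells of both libraries had no IRT1 UMI. Such a difference was not detectable in the Fe- library of experiment 2 with 3 cells.

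**Figure D5:**
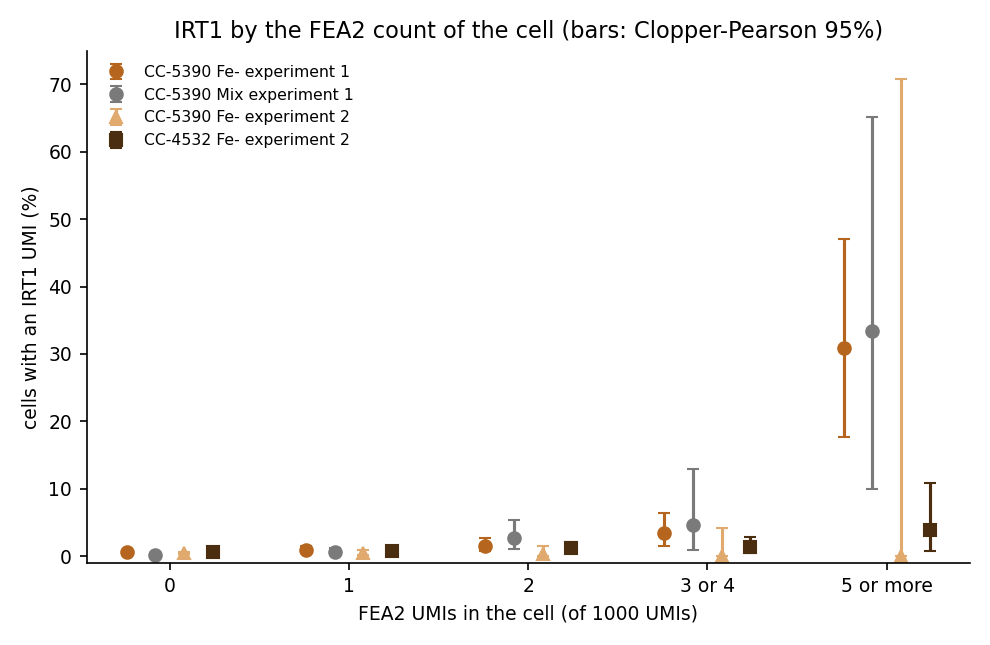
Percent of cells with an IRT1 UMI (y axis) by the number of FEA2 UMIs in the cell, both out of 1000 UMIs, in the 3 Fe- libraries and Mix, with Clopper-Pearson 95% intervals. The share reaches 31.0% and 33.3% at 5 or more FEA2 UMIs in Fe- and Mix of experiment 1, and 3.85% in CC-4532.

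Across single cells the correlations between members were low. Pearson correlations of log(1 + UMIs) at 1000 UMIs per cell, averaged over the 2 Fe- libraries of CC-5390 (9511 and 8110 cells that share a culture within each library), were 0.0746 for FEA1 and FEA2, 0.0408 for FEA1 and TEF22 and 0.0392 for FEA2 and TEF22. For FEA1 and FEA2 the value was higher elsewhere, at 0.139 in Fe- and 0.207 in Fe+ of CC-4532 (9669 and 3016 cells) and 0.213 in Mix (10411 cells). Among 563 genes found in at least 5% of cells, FEA1 was the 8th closest to FEA2 and the 11th closest to TEF22, while FEA2 was only the 68th and TEF22 the 238th closest to FEA1. In sparse counts such values carry little, and they are given as a description.

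The 5 genes closest to FEA1 were Cre06.g258800 (0.226), Cre09.g394200 (0.200), Cre12.g548400 (0.194), which is LHCBM2 of the light-harvesting antenna of photosystem II, Cre17.g717900 (0.192), which is the pherophorin gene PHC1, and Cre14.g620600 (0.189). In the Fe+ library of experiment 1, LHCBM2 had a correlation of 0.140 with FEA1 and the other 4 had values between -0.126 and -0.0922. The signs were the same in Fe+ of CC-5390 in experiment 2, and opposite in Mix and in both libraries of CC-4532. In Fe- of CC-4532 LHCBM2 had -0.0287 and the other 4 had 0.136 to 0.218. For FEA2 they were Cre04.g214150 (0.102), FOX1 (0.0896), Cre12.g548950 (0.0838, LHCBM7 of the same antenna), Cre06.g282800 (0.0823) and Cre17.g702950 (0.0785). For TEF22 they were Cre14.g634279 (0.0781), 3 mitochondrial rRNA genes (0.0529 to 0.0708) and Cre14.g634322 (0.0532). Among these 15, FOX1 and PHC1 were on the study's iron deficiency list.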

How the data were processed

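The 9 matrices of Chromium single-cell 3′ libraries were used. The deposited values were raw, unscaled UMI counts for every gene in every cell, which the authors made by aligning reads to the v5.5 genome and calling cells with cellranger count. All deposited cells were used, with no doublet caller. UMIs were summed per gene and library for CPM and for edgeR 4.0.16 (filterByExpr, TMM, quasi-likelihood F test, Benjamini-Hochberg at 0.05 over all genes), with DESeq2 1.42.0 as an alternative, in R 4.3.3. Cells were thinned to 1000 UMIs (alternative 500) without replacement in Python 3.11.15 with numpy 2.4.6 and scipy 1.17.1, and figures were drawn with matplotlib 3.10.9. Cells were not treated as replicates. Intervals are 95% exact Poisson, conditional binomial or Clopper-Pearson intervals and cover counting error only.

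Fe- and Fe+ libraries of the same experiment deviated together from the mean of their condition (r = 0.501 across 14588 genes). The pairing itself comes from the pre-cultures in the study's methods, and the biological coefficient of variation was 0.491 without and 0.349 with the block. The methods name more CC-5390 flasks than media in experiment 2 without saying which condition had the extra one, and p-values measure the spread between these libraries. Library depth, given with the results, sets the width of the intervals.

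The members and gene lists were chosen with earlier results of these data known. Named genes were the 3 members, the uptake and other iron genes, neighbors called in a blocked fit and, for each member, the 5 genes with the highest mean correlation in the Fe- libraries of CC-5390. Of 17893 IDs, 17738 matched the RefSeq table of the v5.5 assembly.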

Additional observations from a re-analysis of the deposited data

How the results depend on the processing

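The 3 members kept a higher level in Fe- in all 11 fits of CC-5390 and all 12 of both strains, with log2 fold changes from 1.79 to 2.83, 5.42 to 5.70 and 1.89 to 3.20 (FEA1, FEA2, TEF22) and from 2.35 to 3.68, 5.25 to 5.54 and 2.38 to 3.26. Their calls did not. Some of these fits are not separate checks. The study's limits on genes and UMIs per cell removed no Fe- or Fe+ cell of CC-5390, so that fit repeated the main fit. The fits of both strains without a library of CC-4532 repeated the comparison within CC-5390. In CC-5390 the replicate block moved the count of calls from 0 to 1194 and gave the members 2.32, 5.53 and 2.51, all past the threshold. DESeq2 called 548 genes and gave 2.39, 5.58 and 2.44, and no filter on low counts called 48 and gave FEA2 5.52. Leaving out 1 library gave 11 to 364 calls, in fits that assume the lone library of its condition to vary like the others. In both strains 498 genes were called, against 2494 with the replicate block, 1864 by DESeq2, 1110 without a filter, 319 without the 5% of cells with the most UMIs and 0 to 1915 with 1 library left out. The cause of these moves was not tested.

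Averaged over the pairs of CC-5390, the log2 CPM ratio of FEA1 was 2.46, and 2.80 when every cell weighed the same. The Fe- minus Fe+ difference in the share of cells was 31.3 percentage points for FEA2 (17.8 at 500 UMIs, 60.3 unthinned) and 8.30 for TEF22 (25.3 unthinned). Mean co-detection in Fe- was 1.06 for FEA1 and FEA2 (1.32 with at least 2 UMIs of each), 1.05 for FEA1 and TEF22 (1.12 at 500 UMIs) and 1.10 for FEA2 and TEF22 (1.13 at 500 UMIs, 1.09 without the deepest cells, and 2.51 with at least 2 UMIs of each in experiment 1, where alone it could be computed). Scaling by TMM and RLE factors, chosen after seeing the data, reversed the log2 ratio of FEA1 between strains in Fe- from -0.09 to 0.39 and 0.50, and that of FEA2 in N- over Fe+ from 0.90 to -0.21 and -0.068. Depth limits the Fe+ and N- shares, which rest on as few as 6 cells.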
